A study of Homo sapiens with 17 samples.

Results

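The genes described here are 5 diacylglycerol kinases (DGKA, DGKZ, DGKE, DGKQ and DGKD) and 5 proteins that diacylglycerol recruits or activates (RASGRP1, RASGRP2, PRKCQ, PRKCB and PRKCA). They were taken from a named list by gene symbol with no filter on their values. The list itself was chosen with earlier results of these data known. All 10 were among the 25548 gene symbols of the deposited table, and all 10 were among the 12015 genes with a mean of at least 1 FPKM that were tested. FPKM is a read level scaled to the length of the gene model and to the mapped fragments of the library, so levels can be compared between genes per unit of length.

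Diacylglycerol is the membrane lipid that phospholipase C releases below an engaged T cell receptor. It brings RASGRP proteins to the membrane, where they load RAS with GTP and start the ERK cascade, and it activates several protein kinase C enzymes, which feed the NF-kB arm. Diacylglycerol kinases end that signal by phosphorylating the lipid to phosphatidic acid. In T cells, DGKA and DGKZ are the kinases best known for damping receptor signals, and high DGKA is a known feature of anergic T cells.

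The libraries came from Jurkat, an established human T cell leukaemia line, exposed to ILT3.Fc, a soluble fusion of the inhibitory receptor ILT3 with an antibody Fc part. The series was made to look for the master regulator of the response to this protein. Cells received 0, 12.5 or 25 µg/ml for 6, 12 or 24 h, in RPMI-1640 with fetal bovine serum, L-glutamine and gentamicin, and the labels name no receptor stimulus. There were 17 libraries in 9 groups: 8 groups held 2 libraries, and the untreated 12 h group held 1. The 0 µg/ml cultures are called untreated below, since the labels name no control Fc protein. The labels call the samples duplicated and leave out if the second of each pair was its own culture. The p-values therefore reflect the scatter of these libraries alone, which may be technical.

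FPKM values keep no read counts. Relative depth, read from the steps between low values, was 0.69 to 1.0 of that of the deepest library. How many reads that is remains unknown. Every one of 11 T lineage markers was well detected, with medians from 19.3 FPKM (CD5) to 539 FPKM (CD3D). Markers of other cells were near 0 in median FPKM (MS4A1 0, CD14 0.227, EPCAM 0, HBB 0), except CD79A at 40.1 and NKG7 at 5.07. A pair of libraries stood apart. In replicate 1 of 12.5 µg/ml at 6 h, deviations from the mean library followed transcript length (Spearman correlation across genes, -0.64). In replicate 2 of 25 µg/ml at 24 h they followed GC content (0.57). Lane 4 carried the 24 h libraries together with the first of each 6 h pair, and lane 5 carried the 12 h libraries together with the second of each 6 h pair.

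The protein kinase C gene PRKCA was the most abundant of the 10, at a mean of 63.9 FPKM over the 17 libraries (49.8 to 69.9). It encodes a conventional isoform, activated by calcium together with diacylglycerol. DGKA, the calcium-regulated diacylglycerol kinase, came next at 37.3 FPKM (33.4 to 42.6) and was the most abundant of the kinases that consume the lipid. RASGRP1, the main RAS activator downstream of the T cell receptor, followed at 28.7 FPKM (26 to 30.7).

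PRKCQ, which encodes the calcium-independent isoform that gathers at the T cell synapse, averaged 22.6 FPKM (21.2 to 24.2). PRKCB, a conventional isoform, averaged 20.7 FPKM (19.0 to 23.2), and DGKZ, the kinase known to limit RASGRP1 output, 18.6 FPKM (16.9 to 22.9). The lower end held RASGRP2, an activator of RAP1, at 15.2 FPKM, DGKE, the kinase selective for arachidonoyl diacylglycerol, at 12.8 FPKM, the type II kinase DGKD at 11.6 FPKM and DGKQ at 5.63 FPKM.

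The order was the same in all 17 libraries for PRKCA over DGKA, DGKA over RASGRP1 and RASGRP1 over PRKCQ. It was also the same in all 17 for DGKZ over RASGRP2 and DGKD over DGKQ. Neighbours crossed in some libraries elsewhere: PRKCQ exceeded PRKCB in 16, PRKCB exceeded DGKZ in 15, RASGRP2 exceeded DGKE in 15 and DGKE exceeded DGKD in 13. Variation over all libraries, as the SD in percent of the mean, ran from 3.33% for PRKCQ to 12.3% for DGKQ.

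The other diacylglycerol kinase genes were low or not seen. DGKH averaged 3.2 FPKM, DGKG 0.0694, DGKK 0.00745 and DGKI 0.000521, and DGKB was listed at 0 in every library, where an exact 0 can be a failed estimate. Among the relatives of the effectors, PRKCH averaged 48.9 FPKM, second only to PRKCA among the protein kinase C genes measured here, while RASGRP3 averaged 0.252 and RASGRP4 0.0293 FPKM.

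The sequences just before the starts of DGKA and PRKCA are shown because DGKA rose and PRKCA fell at 24 h in the tests that follow. They come from RefSeq promoter windows on GRCh38.p14, which held 17 windows for 9 of the 10 members. The DGKA stretch is chr12:55927914-55928070 on the plus strand, the 157 bases before 1 of its 5 listed starts that hold no GENCODE v29 exon. The PRKCA stretch is chr17:66302363-66302612 on the plus strand, the 250 bases before its start, also without an exon. Capitals mark a match to the EGR motif.
DGKA: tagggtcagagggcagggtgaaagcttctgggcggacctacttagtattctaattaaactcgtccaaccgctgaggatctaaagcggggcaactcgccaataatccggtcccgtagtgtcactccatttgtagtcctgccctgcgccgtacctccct
PRKCA: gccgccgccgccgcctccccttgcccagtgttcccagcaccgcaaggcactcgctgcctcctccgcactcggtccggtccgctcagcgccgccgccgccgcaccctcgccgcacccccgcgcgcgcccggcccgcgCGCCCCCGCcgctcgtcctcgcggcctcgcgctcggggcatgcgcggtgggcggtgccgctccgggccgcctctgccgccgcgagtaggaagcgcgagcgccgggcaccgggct

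EGR and FOXO factors are both known to act on DGKA in T cells. A search of both strands used GCGGGGGCG (CGCCCCCGC on the other strand) for EGR factors and GTAAACA, likewise on both strands, for FOXO factors, in windows from 250 bases before to 50 bases after each start. The EGR letters occurred in 5.07% of all 35116 windows and the FOXO letters in 3.42%. None of the 5 DGKA windows held either. The EGR letters occurred in the PRKCA window, in 1 DGKZ window and in 1 DGKD window, and the FOXO letters in the PRKCQ window. A match describes these letters only and shows no binding, and the lack of a match says nothing about either factor at DGKA.

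**Figure D1:**
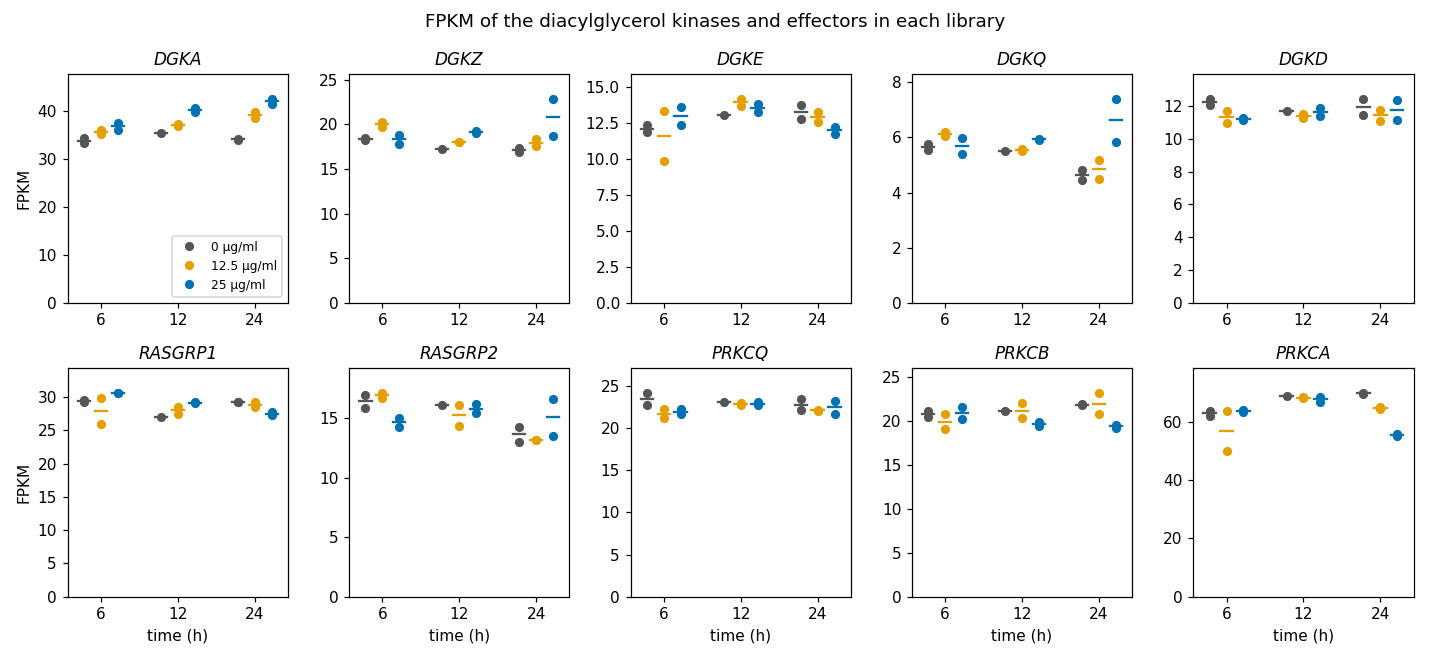
Each panel plots the FPKM of 1 gene (vertical axis, from 0) against time in hours (6, 12 and 24), with 1 point per library coloured by dose and a bar at the group mean. DGKA steps up with dose at each time and reaches 42.6 FPKM, PRKCA drops to 55.2 and 55.9 FPKM at 25 µg/ml and 24 h, and the duplicates of DGKZ, DGKQ and RASGRP2 at 25 µg/ml and 24 h lie apart.

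DGKA rose with 25 µg/ml ILT3.Fc, and it was the only member called over all times. At 6 h its FPKM was 34.4 and 33.4 in untreated cells, 35.3 and 36.0 at 12.5 µg/ml, and 37.6 and 36.0 at 25 µg/ml. At 12 h it was 35.4 in the single untreated library, 36.9 and 37.3 at 12.5 µg/ml, and 39.9 and 40.6 at 25 µg/ml. At 24 h it was 34.2 and 34.1 in untreated cells, 39.7 and 38.5 at 12.5 µg/ml, and 41.6 and 42.6 at 25 µg/ml. Every treated library lay above every untreated library of its time, at both doses, although the doses share those untreated libraries.

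Over all times the DGKA difference for 25 against 0 µg/ml, on the log2 scale of FPKM + 1, was 0.20 (SE 0.022, 95% confidence interval 0.15 to 0.25, limma adjusted p = 0.000577). Of all genes tested, 9.47% were called in this comparison. An unadjusted p under 0.05 was found for 4 of the 10 members, and for 3116 of the 12015 genes tested. The median difference of the 10 was -0.007, against 0.015 over all genes tested. In whole-culture RNA, more DGKA RNA per cell and a larger share of cells that express it cannot be told apart.

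The DGKA call was kept when any 1 of the 17 libraries was left out (difference 0.19 to 0.21, adjusted p = 0.000346 to 0.00325). It was lost in lane 4 alone (0.21, adjusted p = 0.0968) and in lane 5 alone (0.14, adjusted p = 0.147). Leaving out every 24 h library also ended it (0.15, adjusted p = 0.0885). With each library corrected for GC content and transcript length, 5 members were called over all times: DGKA (0.18, adjusted p = 0.000162), DGKZ (0.10, adjusted p = 0.0205) and DGKQ (0.14, adjusted p = 0.0181) higher, and DGKD (-0.081, adjusted p = 0.0426) and PRKCA (-0.13, adjusted p = 0.00173) lower. This correction also raised the share called among all genes, so the share of the main fit is not the one to set beside these 5. The whole-table total with it is given in the closing section.

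The difference of DGKA was 0.12 at 6 h (SE 0.035), 0.18 at 12 h (SE 0.043) and 0.30 at 24 h (SE 0.035). Only the 24 h value passed the limma test (adjusted p = 0.000647), with adjusted p = 0.275 at 6 h and 0.234 at 12 h. The test of the 24 h effect against the 6 h effect gave a difference of 0.18 (SE 0.050, adjusted p = 0.0738), which was called without either 12.5 µg/ml 6 h library (adjusted p = 0.0375 in each case). With all libraries fitted, none of the 10 genes passed this test of a difference between times, in which 3.3% of all genes were called. For this difference, 5 of the 10 had an unadjusted p under 0.05, as did 2603 of the 12015 genes tested. Without replicate 1 of 25 µg/ml at 24 h, this difference was 0.40 for DGKZ, 0.58 for DGKQ and 0.42 for RASGRP2. That fit keeps, for the group, only the replicate whose deviations followed GC content. Over all alternatives the lowest values were 0.016, 0.159 and 0.041 in the same order.

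At 12.5 µg/ml, DGKA differed from untreated cells by 0.11 over all times (SE 0.022, adjusted p = 0.0813) and by 0.19 at 24 h (SE 0.035, adjusted p = 0.0871). The step from 12.5 to 25 µg/ml was 0.087 (SE 0.020, adjusted p = 0.138). None of the 10 genes was called at 12.5 µg/ml against 0 over all times, where 0.283% of all genes were called. There, 1 of the 10 had an unadjusted p under 0.05, against 1315 of the 12015 genes tested. None was called for 25 against 12.5 µg/ml either, where the share was also 0.283%. An unadjusted p under 0.05 was found there for 2 of the 10 and for 1427 of the 12015 genes tested. After correction for GC content and transcript length, DGKA was called in both (adjusted p = 0.0271 for 12.5 against 0 µg/ml, and 0.046 for 25 against 12.5 µg/ml). Without replicate 2 of 12.5 µg/ml at 6 h it was called in both as well (adjusted p = 0.0201 and 0.0176), and without replicate 1 for 12.5 against 0 µg/ml (adjusted p = 0.0496). At 12.5 µg/ml and 24 h it was called without either of these libraries (adjusted p = 0.0352 and 0.0354).

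In untreated cells the DGKA level lay close together at 6 and 24 h. It averaged 33.9 ± 0.731 FPKM (SD, n = 2) at 6 h and 34.1 ± 0.0693 (SD, n = 2) at 24 h without ILT3.Fc, a log2 difference of 0.01 (95% confidence interval -0.068 to 0.087). At 25 µg/ml it averaged 36.8 ± 1.13 FPKM (SD, n = 2) at 6 h, 40.3 ± 0.471 (SD, n = 2) at 12 h and 42.1 ± 0.737 (SD, n = 2) at 24 h.

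**Figure D2:**
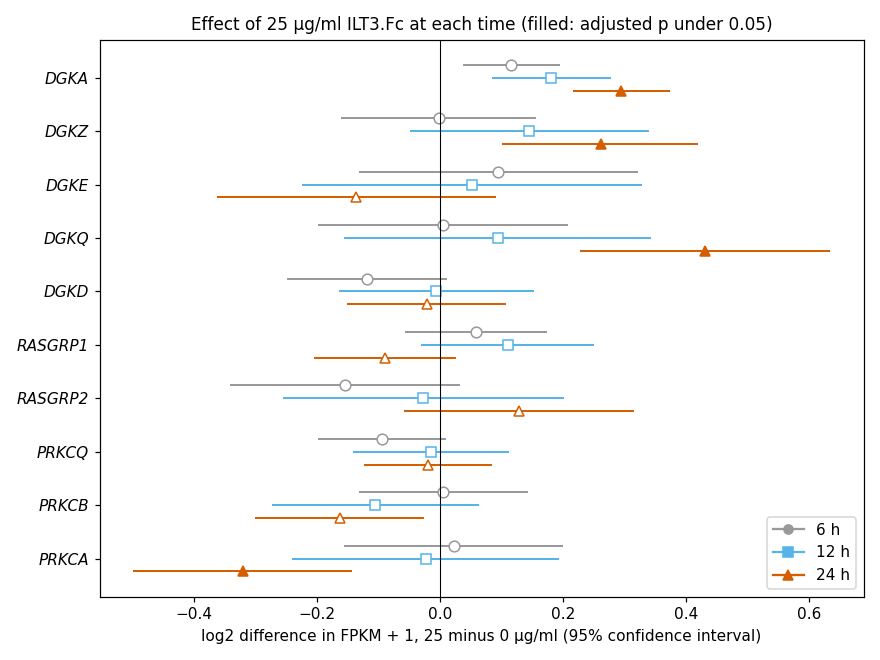
For each of the 10 genes, points show the log2 difference in FPKM + 1 between 25 and 0 µg/ml at 6, 12 and 24 h (horizontal axis), with 95% confidence intervals, and filled points mark an adjusted p under 0.05. All filled points are at 24 h: DGKA, DGKZ and DGKQ to the right of 0 and PRKCA, at -0.32, to the left.

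By 24 h at 25 µg/ml, 4 of the 10 genes were called, against 16.5% of all genes tested: DGKA, DGKZ and DGKQ higher, and PRKCA lower. An unadjusted p under 0.05 was found for these 4 and a 5th, PRKCB, and for 3874 of the 12015 genes tested. The median difference of the 10 was -0.020, against 0.036 over all genes. When only the groups compared were fitted, none of the 10 was called at 24 h. The comparison then rests on 4 libraries, and only 12 genes in the whole table pass.

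PRKCA fell at 24 h. Its FPKM was 69.9 and 69.3 in untreated cells, 64.1 and 64.9 at 12.5 µg/ml, and 55.9 and 55.2 at 25 µg/ml. The 3 doses did not overlap, and the duplicates differed by less than 1 FPKM at each dose. The difference for 25 µg/ml was -0.32 (SE 0.080, 95% confidence interval -0.50 to -0.14, limma adjusted p = 0.0218). The difference for 12.5 µg/ml was -0.11 (adjusted p = 0.743).

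At the earlier times PRKCA showed no such step. At 12 h its FPKM was 68.7 in the untreated library, 68.0 and 68.2 at 12.5 µg/ml, and 68.5 and 66.6 at 25 µg/ml. At 6 h it was 63.7 and 61.8 in untreated cells, 49.8 and 63.6 at 12.5 µg/ml, and 63.4 and 64.1 at 25 µg/ml. The value of 49.8 belongs to the 6 h library whose deviations followed transcript length, and the PRKCA transcript is 8751 bases long. The test of the 24 h effect of 25 µg/ml against the 6 h effect gave -0.34 (SE 0.11, adjusted p = 0.115). It was called with GC content and length corrected (-0.33, adjusted p = 0.00606). It was also called without either 12.5 µg/ml 6 h library. This test does not use that group, so the difference stayed the same and only its spread and p changed.

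The size of the PRKCA difference at 24 h hardly moved when a library was left out (-0.33 to -0.31). The call did: it was lost without either untreated 24 h library (adjusted p = 0.0852 without replicate 1, and 0.109 without replicate 2) and without either 25 µg/ml 24 h library (0.0553 and 0.116). It was also lost without the 12 h libraries (adjusted p = 0.053). Over all times PRKCA was not called with all libraries (-0.11, limma adjusted p = 0.203). PRKCA was called there without either 12.5 µg/ml 6 h library, at the same difference, since this comparison does not use that group. Its transcript has 47.8% GC, and correction for GC content and transcript length left -0.34 at 24 h (adjusted p = 9.72e-05).

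DGKQ, the type V diacylglycerol kinase, rose at 24 h by the test. Its FPKM was 4.81 and 4.45 in untreated cells, 5.19 and 4.51 at 12.5 µg/ml, and 5.84 and 7.41 at 25 µg/ml. Both 25 µg/ml libraries lay above the others, and they lay far apart from each other (6.62 ± 1.11 FPKM, SD, n = 2, against 4.63 ± 0.253, SD, n = 2, in untreated cells). The difference was 0.43 (SE 0.092, limma adjusted p = 0.0112). Without replicate 2 of 25 µg/ml at 24 h it was 0.28 (adjusted p = 0.0871), and without replicate 2 of the untreated 24 h group the adjusted p was 0.0941. With GC content and length corrected it was 0.24 (adjusted p = 0.0138). Over all times the DGKQ difference was 0.18 (adjusted p = 0.0796). It ran from 0.13 to 0.23 with single libraries left out, and was highest without replicate 1 of 25 µg/ml at 24 h.

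DGKZ, the kinase that restrains RASGRP1 output, was also called higher at 24 h. Its FPKM was 17.3 and 16.9 in untreated cells, 18.4 and 17.6 at 12.5 µg/ml, and 18.7 and 22.9 at 25 µg/ml. The libraries of 25 µg/ml lay above the untreated ones, with the second far above the first. The difference was 0.26 (SE 0.071, limma adjusted p = 0.0323), and it was 0.12 (adjusted p = 0.194) without that second library and 0.084 (adjusted p = 0.182) with GC content and length corrected. The 24 h call was also lost without either untreated 24 h library (adjusted p = 0.084 without replicate 1, and 0.166 without replicate 2), and narrowly with median centring (0.22, adjusted p = 0.0516). Over all times DGKZ differed by 0.14 (adjusted p = 0.0845). The difference ran from 0.088 to 0.18 with single libraries left out, and was highest without replicate 1 of 25 µg/ml at 24 h.

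The spread between the 25 µg/ml duplicates at 24 h moved with the GC content of the 10 transcripts, which are taken here from GENCODE v29. Replicate 2 exceeded replicate 1 on the log2 scale by 0.299 for DGKQ (66.0% GC), 0.279 for DGKZ (64.8%) and 0.273 for RASGRP2 (63.9%). DGKA, at 51.1% GC, differed between the same duplicates by 0.0349, and PRKCA, at 47.8%, by -0.0172. Over the 10 genes, which share both libraries, Pearson's r was 0.95. Beyond the left-out and corrected values above, the part of GC content in the 24 h results was not tested.

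**Figure D3:**
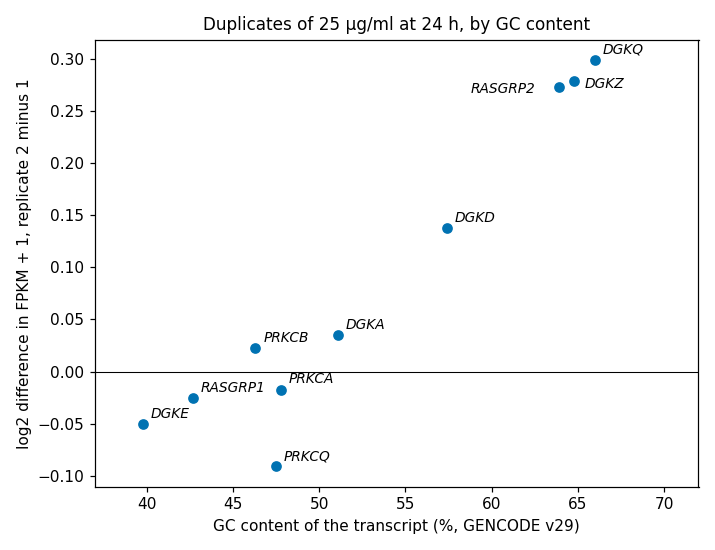
Each point is 1 of the 10 genes, with the GC content of its longest protein-coding transcript in percent (horizontal axis) and the log2 difference in FPKM + 1 between replicates 2 and 1 of 25 µg/ml at 24 h (vertical axis). DGKQ, DGKZ and RASGRP2, above 63% GC, are the 3 points above 0.25, and DGKA lies near 0.

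A like pattern followed length in the 12.5 µg/ml 6 h duplicates, where replicate 1 minus replicate 2 was -0.403 on the log2 scale for DGKE (8660 bases) and -0.347 for PRKCA (8751 bases). Pearson's r with log2 transcript length was -0.83 over the 10 genes. No member was called at 12.5 µg/ml at 6 h, where 0.025% of all genes were called. There, 1 of the 10, PRKCQ, had an unadjusted p under 0.05, against 919 of the 12015 genes tested.

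RASGRP1 passed the test in none of the comparisons when all 17 libraries were fitted. Its FPKM was 29.3 and 29.6 untreated against 30.7 and 30.7 at 25 µg/ml at 6 h, 27.0 against 29.2 and 29.2 at 12 h, and 29.3 and 29.3 against 27.7 and 27.2 at 24 h. The 25 µg/ml libraries were thus higher than untreated at 6 and 12 h and lower at 24 h, without overlap. The difference over all times was 0.026 (95% confidence interval -0.045 to 0.097), and at 24 h it was -0.089 (adjusted p = 0.264). Leaving out 1 of the 12.5 µg/ml 6 h duplicates changed this. The comparisons of 25 with 0 µg/ml do not use that group, so for them only the spread and p changed. Replicate 1 of that pair is the library whose deviations followed transcript length, and fits without replicate 2 rest on it for that group. Between these duplicates RASGRP1 differed by -0.191 on the log2 scale, replicate 1 minus replicate 2. Without replicate 1 of that pair RASGRP1 was called at 24 h (-0.089, adjusted p = 0.0439), for 24 against 6 h over all doses (-0.069, adjusted p = 0.0161) and for the 24 h effect of 25 µg/ml against the 6 h effect (-0.15, adjusted p = 0.0471). Without replicate 2 it was called at 24 h (adjusted p = 0.0441), for the same difference of effects (adjusted p = 0.0475), for 12.5 against 0 µg/ml at 6 h (-0.17, adjusted p = 0.00962) and for 25 against 12.5 µg/ml (0.073, adjusted p = 0.0272).

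RASGRP2, the RAP1 activator, fell from 6 to 24 h over all doses, the only member called lower with all libraries fitted. At 6 h its FPKM was 15.9 and 17 in untreated cells, 17.2 and 16.7 at 12.5 µg/ml, and 15.0 and 14.3 at 25 µg/ml. At 24 h it was 14.3 and 13, 13.2 and 13.2, and 13.6 and 16.6 in the same order of doses. Replicate 2 of 25 µg/ml at 24 h was the only library in which the 24 h value exceeded the 6 h values of its dose. The mean difference over the doses was -0.19 (SE 0.049, limma adjusted p = 0.0178), and DGKA rose (0.11, SE 0.020, adjusted p = 0.00327), against 25.2% of all genes called. The DGKA call was lost in lane 4 alone (0.097, adjusted p = 0.0622).

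The RASGRP2 call was lost with sequencing lane as a covariate (-0.19, adjusted p = 0.060), and without replicate 2 of the untreated group at 24 h (-0.17, adjusted p = 0.051) or at 6 h (-0.17, adjusted p = 0.0536). It was also lost in lane 4 alone (adjusted p = 0.131). DGKQ, at -0.12 with all libraries, was called lower between 6 and 24 h with GC content and length corrected (-0.12, adjusted p = 0.0126) and without replicate 2 of 25 µg/ml at 24 h (-0.17, adjusted p = 0.021). Without replicate 2 of 12.5 µg/ml at 6 h, the change from 6 to 24 h was 0.12 for DGKE and 0.11 for PRKCA. With all libraries it was 0.056 and 0.049. The fit without that replicate keeps, for the group, only the library whose deviations followed transcript length, and DGKE and PRKCA have the longest transcripts of the 10. In untreated cells alone RASGRP2 differed by -0.25 between 24 and 6 h (adjusted p = 0.14). There, none of the 10 was called, against 2.33% of all genes. An unadjusted p under 0.05 was found for 2 of the 10 and for 2248 of the 12015 genes tested. For 25 against 0 µg/ml, RASGRP2 differed by -0.15 at 6 h (adjusted p = 0.582) and 0.13 at 24 h (adjusted p = 0.325). The 24 h value rested on which 25 µg/ml duplicate was kept: it was -0.008 without replicate 2 and 0.27 (adjusted p = 0.0444) without replicate 1. It was -0.040 (adjusted p = 0.689) with GC content and length corrected.

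PRKCB had lower values at 25 µg/ml at 24 h that did not pass. Its FPKM was 21.8 and 21.8 in untreated cells, 23.2 and 20.7 at 12.5 µg/ml, and 19.2 and 19.5 at 25 µg/ml. The untreated and 25 µg/ml libraries did not overlap, and the difference was -0.16 (SE 0.062, adjusted p = 0.0932). It was -0.20 (adjusted p = 0.0447) with each library centred on its median.

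PRKCQ was the steadiest member. It lay between 21.6 and 24.2 FPKM in all untreated and 25 µg/ml libraries, and its difference over all times was -0.043 (95% confidence interval -0.11 to 0.021). DGKD differed by -0.049 over all times (95% confidence interval -0.13 to 0.031). At 24 h DGKD differed by -0.021, and by -0.14 with GC content and length corrected, where it was called (adjusted p = 0.0303). DGKE differed by 0.004 over all times (95% confidence interval -0.14 to 0.14), with 0.095 at 6 h and -0.14 at 24 h. The intervals bound the differences and do not show that the genes were unaffected.

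At the single earlier times no member was called for 25 against 0 µg/ml. At 6 h 0.225% of all genes were called and at 12 h 0.0499%. At each time 1 of the 10, DGKA, had an unadjusted p under 0.05. Of the 12015 genes tested, 1239 had such a p at 6 h and 1034 at 12 h. At 12.5 µg/ml none of the 10 was called at 12 h, where 0.0416% of all genes were called. None of the 10 had an unadjusted p under 0.05 there, against 428 of the 12015 genes tested. At 24 h and 12.5 µg/ml none was called, against 0.117% of all genes. DGKA alone of the 10 had an unadjusted p under 0.05, against 1167 of the 12015 genes tested.

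Counting members whose treated and untreated libraries did not overlap gave 7 of 10 for 25 µg/ml at 24 h, against 60.6% of all genes, and 6 of 10 at 6 h, against 49.4%. It gave 8 of 10 at 12 h, against 75.6%, where a single untreated library makes overlap rare. For 12.5 µg/ml it gave 5 of 10 at 6 h (30.2% of all genes), 8 of 10 at 12 h (69.7%) and 4 of 10 at 24 h (43.1%). Apart from 12.5 µg/ml at 6 h, these shares are near those of all genes. The 5 genes there split into 3 above and 2 below the untreated libraries. That group also holds the library whose deviations followed transcript length. No count was tested against its share.

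At each time, DGKA took a larger share of the family's RNA at 25 µg/ml than in untreated cells of that time. DGKA made up 40.6% to 42.7% of the summed FPKM of the 5 kinases in untreated libraries, and 42.1% to 46.5% at 25 µg/ml. The summed FPKM of the 5 kinases was 80.6 to 82.8 in the 5 untreated libraries, and 89.4 and 97.0 at 25 µg/ml at 24 h. The summed FPKM of PRKCQ, PRKCB and PRKCA was 115 and 113 in untreated cells at 24 h, and 98.3 and 96.5 at 25 µg/ml. The ratio of DGKA to PRKCA FPKM at 24 h was 0.489 and 0.492 in untreated cells, 0.619 and 0.594 at 12.5 µg/ml, and 0.744 and 0.772 at 25 µg/ml. These sums and ratios restate the genes' own values and were not tested.

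Over the 17 libraries, the members most alike in their log2 values were DGKZ and DGKQ (Pearson's r = 0.89), DGKE and PRKCA (0.85), and DGKQ and RASGRP2 (0.67). The lowest value was -0.62, for DGKZ and PRKCA. DGKZ, DGKQ and RASGRP2 share a high GC content, and DGKE and PRKCA are the longest transcripts, so these correlations describe the libraries as well as the genes. Of all tested genes, TCOF1 (r = 0.914), C14orf159 (r = 0.909) and PLCG1 (r = 0.900) followed DGKA most closely over the 17 libraries, which share dose, time and depth.

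PLCG1, the phospholipase that produces diacylglycerol below the T cell receptor, also rose over all times (0.15, SE 0.031, adjusted p = 0.014). At 24 h its FPKM was 42.3 and 41.0 in untreated cells, 45.1 and 45.5 at 12.5 µg/ml, and 47.2 and 52.7 at 25 µg/ml, without overlap between doses. It was 1 of 7 tested phospholipase C genes called, against 9.47% of all genes, and the others did not pass. Without the 24 h libraries PLCG1 differed by 0.095 (adjusted p = 0.218).

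The other enzymes that make or use diacylglycerol and phosphatidic acid had 4 of 12 tested genes rising over all times and none falling, with a list median of 0.083 against 0.015 for all genes. For this and the other lists over all times, the share called among all genes tested was 9.47%, and a list share near it is no result about the list. DGAT1, which turns diacylglycerol into triglyceride, rose by 0.28 (SE 0.055, adjusted p = 0.0115). LPIN2 (0.19, adjusted p = 0.00618) and LPIN1 (0.12, adjusted p = 0.030), phosphatases that make diacylglycerol from phosphatidic acid, and AGK, the acylglycerol kinase of mitochondria (0.096, adjusted p = 0.0391), also rose. The enzymes that rose include both producers and consumers of the lipid. The AGK call was lost in 21 of 32 alternatives and the LPIN1 call in 14.

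At 24 h the FPKM of DGAT1 was 9.53 and 8.45 in untreated cells, 10.8 and 9.76 at 12.5 µg/ml, and 13.3 and 15.9 at 25 µg/ml. The 3 doses did not overlap, and the difference at 25 µg/ml was 0.64 (adjusted p = 0.00143). Without the 24 h libraries the DGAT1 difference was 0.10 (adjusted p = 0.454). The LPIN2 difference was 0.13 without them (adjusted p = 0.218).

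In the list of other C1 domain proteins and members of their families, 1 of 9 tested genes rose over all times, near the 9.47% called among all genes. It was PRKD2, a protein kinase D isoform (0.12, adjusted p = 0.0366). The call was lost in 16 of 32 alternatives, among them leaving out replicate 2 of 25 µg/ml at 24 h (0.11, adjusted p = 0.0782). PRKCH, another abundant calcium-independent isoform, differed by 0.004 (95% confidence interval -0.049 to 0.057). The atypical isoform PRKCI, which does not bind diacylglycerol, differed by 0.022, and DGKH by 0.069 (95% confidence interval -0.28 to 0.42).

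Downstream, the RAS to ERK cascade had 1 of 19 tested genes called over all times, against 9.47% of all genes, MAP2K1, which encodes the kinase MEK1 (-0.12, adjusted p = 0.0337, lost in 13 of 32 alternatives). Of 10 tested genes that ERK induces, 1 was called: IER3, an immediate early gene, fell (-0.43, SE 0.063, adjusted p = 0.00281). Its FPKM at 24 h was 3.32 and 3.49 in untreated cells and 1.95 and 2.28 at 25 µg/ml, and at 6 h 3.39 and 3.31 against 2.17 and 2.02, without overlap. At 12 h it was 2.61 in the untreated library and 1.87 and 2.08 at 25 µg/ml. Other immediate early genes ranged widely in level, from FOS at a mean of 0.13 FPKM and EGR1 at 0.425 to JUNB at 14 and IER2 at 17.7 FPKM. For 25 against 0 µg/ml over all times, JUNB (-0.115, limma adjusted p = 0.169) and IER2 (-0.117, adjusted p = 0.156) were lower and not called. Each had an unadjusted p under 0.05.

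The NF-kB arm had 2 of 18 tested genes rising, near the 9.47% called among all genes, the ubiquitin ligase gene TRAF6 (0.17, adjusted p = 0.0186) and MAP3K7, which encodes the kinase TAK1 (0.13, adjusted p = 0.0183). The receptor-proximal adaptors had 2 of 14 rising, the costimulatory receptor CD28 (0.14, adjusted p = 0.0103) and the adaptor GRAP2 (0.090, adjusted p = 0.0303). GRAP2 lost its call in 13 of 32 alternatives. None of the 12 list genes named as called over all times passed without the 24 h libraries or in either lane alone.

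At 24 h alone, where 16.5% of all genes were called, 25 µg/ml raised 2 of 7 phospholipase C genes (PLCG1 0.25, adjusted p = 0.00733, and PLCB2 0.43, adjusted p = 0.0312) and lowered none. Of the 9 tested genes in the C1 domain list, UNC13D, included with the UNC13 family (0.29, adjusted p = 0.00498), and PRKD2 (0.26, adjusted p = 0.00763) rose. The RAS to ERK cascade had 2 rising and 2 falling of 19, led by RASA1, a RAS GTPase-activating protein (-0.25, adjusted p = 0.0166), and MAPK3, which encodes ERK1 (0.27, adjusted p = 0.017). Both ERK target genes called fell: IER3 (-0.50, adjusted p = 0.00863) and SPRED2, a brake on RAF (-0.15, adjusted p = 0.0387).

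In the NF-kB arm 4 of 18 rose at 24 h, which like the 4 of 19 in the RAS to ERK cascade is near the 16.5% of all genes, among them IKBKG (0.21, adjusted p = 0.0429) and TRAF6 (0.20, adjusted p = 0.0432). Of the 14 proximal adaptors 5 rose and 1 fell, with LAT, the scaffold that recruits PLCG1 (0.28, adjusted p = 0.00571), and CD28 (0.24, adjusted p = 0.00576) among those that rose. The enzymes of diacylglycerol and phosphatidic acid again had 4 of 12 rising and none falling. The calls of IKBKG (22), TRAF6 (21) and SPRED2 (17) were lost in that many of 30 alternatives. With GC content and length corrected, IKBKG differed by 0.063 (adjusted p = 0.434), MAPK3 by 0.13 (adjusted p = 0.0709), PLCB2 by 0.29 (adjusted p = 0.0698) and PRKD2 by 0.11 (adjusted p = 0.0883). UNC13D (0.12, adjusted p = 0.0253) and LAT (0.15, adjusted p = 0.0128) kept their calls at smaller sizes.

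Most of these 24 h calls needed replicate 2 of 25 µg/ml at 24 h. Without it, 9 of the 14 list genes named at 24 h were no longer called: PLCG1 (0.18, adjusted p = 0.0544), PLCB2 (0.35, adjusted p = 0.195), PRKD2 (0.24, adjusted p = 0.062), LAT (0.25, adjusted p = 0.0511), RASA1, MAPK3, SPRED2, IKBKG and TRAF6. UNC13D, DGAT1, LPIN2, IER3 and CD28 were still called without it.

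**Figure D4:**
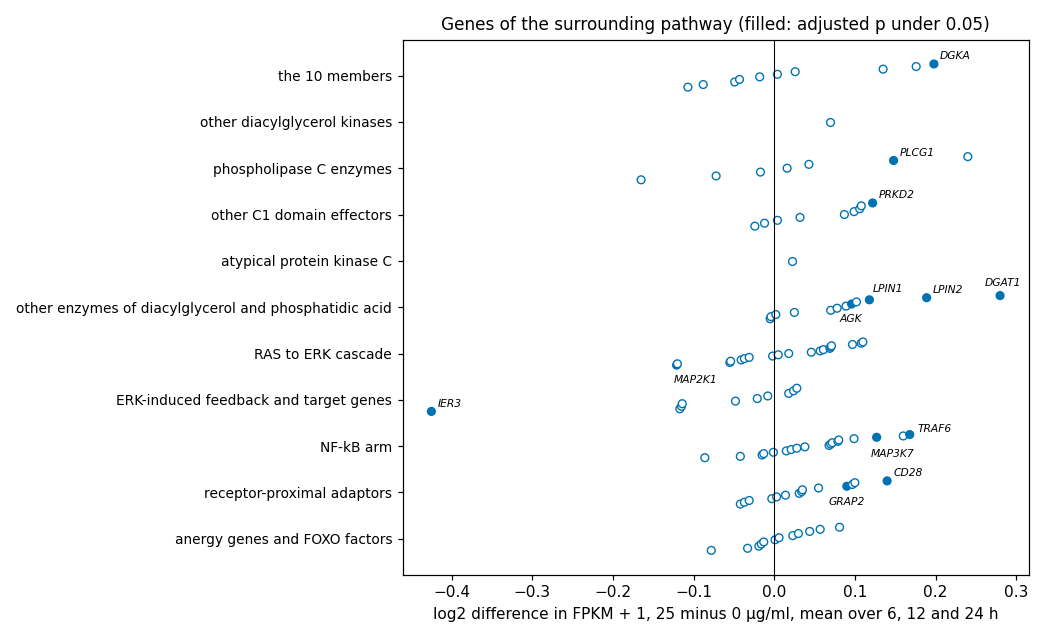
Each row is a gene list of the pathway and each point 1 tested gene, placed by its log2 difference in FPKM + 1 between 25 and 0 µg/ml averaged over 6, 12 and 24 h; filled points, which are labelled, have an adjusted p under 0.05. Filled points run from IER3 at -0.43 to DGAT1 at 0.28, and most genes are unfilled between -0.1 and 0.1. Some unfilled points lie further out than a filled point of their list, such as PLCB2 (0.24) beyond PLCG1 (0.15).

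None of the 12 tested anergy genes and FOXO factors was called for 25 against 0 µg/ml, over all times or at 24 h, with medians of 0.004 and -0.054. CBLB, a ubiquitin ligase of anergic T cells, differed by 0.057 over all times (adjusted p = 0.628), and FOXO3 by -0.016 (adjusted p = 0.851). The promoter windows of DGKA held neither motif searched. EGR2 and EGR3, the factors tied to DGKA expression in anergic T cells, averaged 0.0557 and 0.0864 FPKM over the 17 libraries and were not tested. FOXO1, a factor tied to DGKA expression in resting T cells, averaged 0.633 FPKM and was not tested either.

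From 6 to 24 h over all doses, where 25.2% of all genes were called, each of the larger lists held calls. The RAS to ERK cascade had 6 of 19 tested genes rising and none falling, led by RASA3, a RAS GTPase-activating protein (0.19, adjusted p = 0.000479). In the NF-kB arm 3 rose and 1 fell of 18, with NFKB2 higher (0.25, adjusted p = 0.00151) and IKBKB lower (-0.16, adjusted p = 0.00568). Among the proximal adaptors 2 rose and 3 fell of 14, and the leading ones, PTPRC (-0.15, adjusted p = 0.0039) and LCP2 (-0.16, adjusted p = 0.00415), fell.

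In the same comparison 2 of 7 phospholipase C genes rose, PLCG1 (0.11, adjusted p = 0.0178) and PLCB3 (0.14, adjusted p = 0.0422). The C1 domain list had UNC13B rising (0.17, adjusted p = 0.00338) and PRKCH falling (-0.12, adjusted p = 0.00374), with 2 higher and 1 lower of 9. The lipid enzymes had 2 higher and 1 lower of 12, among them PPAP2A (0.22, adjusted p = 0.00264) and CDS2 (0.13, adjusted p = 0.0131), both higher. IER2 (-0.14, adjusted p = 0.0457) and SPRED1 (-0.12, adjusted p = 0.0479) were the 2 of 10 ERK target genes called, and NFATC1 (0.16, adjusted p = 0.0228) the 1 of 12 in the anergy list. PLCB3 and IER2 each lost the call in 20 of 30 alternatives, and SPRED1 in 23 of 29.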

How the data were processed

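Polyadenylated RNA of 17 Jurkat libraries was sequenced (RNeasy extraction and TruSeq libraries, per the labels' protocols). The authors deposited 1 table of FPKM values. TopHat2 2.1.0 is named in the submitters' processing notes, and for the quantifier, genome build and gene models the entry is: not given in the sources used here. The table's 25593 lines gave 25548 symbols (for the 45 that repeated, the line of highest mean was used), and every column of values was matched to a sample. FPKM holds no counts, so no interval from counting error is given.

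The 12015 genes with a mean of at least 1 FPKM were tested with limma 3.58.1 (R 4.3.3) on log2(FPKM + 1), a scale that understates the changes of low genes. One mean was fitted per dose and time group, with 8 residual degrees of freedom and a variance trend, so the lone untreated 12 h library borrows its spread from the rest. All groups share that spread. Leaving out a library of a group that a comparison does not use therefore keeps the difference and changes only its spread and p. Two-sided p-values were adjusted by Benjamini and Hochberg over all genes tested, with a call below 0.05. An effect over all times averages those at 6, 12 and 24 h. The fit was tested on simulated data.

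The members, the lists (139 genes, 136 in the table, 103 tested) and the tests were chosen with earlier results of these data known. All members are named, with up to 4 called genes per list over all times and up to 2 per list in the other comparisons where a member was called. EGR2, EGR3, FOXO1, FOXO3, CBLB, PLCG1, the other DGK genes and the 3 genes most like DGKA could be named whatever they did. A few items that this rule took are not reported here. The relatives and list genes RASGRP3, RASGRP4, PRKCH, PRKCI, EGR1, FOS and JUNB were named after their values were seen.

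Alternatives changed the pseudocount (0.1), the filter (none, or a mean of 5 FPKM), the scaling (median centring, quantile normalization), the variance trend, the groups fitted, the lane, the times and the libraries, blocked on the replicate number, or subtracted loess curves (span 0.3) on GC content and transcript length. The transcript of each gene was taken from GENCODE v29 (GRCh38), with a match for 92.9% of genes tested. Running these alternatives on the list genes was chosen after seeing the data. Python 3.11.15 with matplotlib 3.10.9 made the figures. Sequences are from RefSeq (GRCh38.p14).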

Additional observations from a re-analysis of the deposited data

Results flagged for a closer look

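Results for DGKE and RASGRP1 changed side with time at the doses named here: both libraries of the dose lay on one side of the untreated libraries at the earlier time and on the other side at 24 h. For DGKE, the log2 effect of 25 µg/ml at 24 h lay below that at 6 h by 0.231, and below that at 12 h by 0.188. For RASGRP1, the effect of 25 µg/ml at 24 h lay below that at 6 h by 0.147 and below that at 12 h by 0.199, and the effect of 12.5 µg/ml at 24 h lay below that at 12 h by 0.075. The differences between 24 and 6 h at 25 µg/ml were tested in limma and did not pass (DGKE adjusted p = 0.383, RASGRP1 adjusted p = 0.271). RASGRP1 passed without replicate 1 (adjusted p = 0.0471) or replicate 2 (adjusted p = 0.0475) of 12.5 µg/ml at 6 h. The differences from 12 h were not tested, and 12 h has 1 untreated library.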

How the results depend on the processing

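No called member reversed its sign under any alternative run. The number of members called for 25 against 0 µg/ml over all times, 1 as reported, was 0 in lane 4 alone, in lane 5 alone and without the 24 h libraries, 2 with only the groups compared, 5 with GC content and length correction, 4 with that correction and the replicate block, and 1 to 3 with single libraries left out. It was 4 at 24 h, and 0 with only the groups compared, 2 in lane 4 alone, 2 without the 12 h libraries, and 1 to 5 with single libraries left out. For 24 against 6 h over all doses it was 2, and 1 with lane as a covariate, 1 in lane 4 alone, and 1 to 4 with single libraries left out. Counts of 0 became 1 for 12.5 against 0 µg/ml over all times without a filter, in lane 4 alone, and with GC content and length correction with or without the replicate block. The same correction, with or without the block, gave 1 for 12.5 against 0 µg/ml at 24 h, untreated cells, and the 24 h against 6 h effect, and without the block 1 for 25 against 12.5 µg/ml. Lane 4 alone gave 1 for 12.5 against 0 µg/ml at 6 h, and fitting only the groups compared gave 1 for the 24 h against 6 h effect. With single libraries left out these counts ranged over 0 to 2 (12.5 against 0, and 25 against 12.5 µg/ml, over all times), 0 to 3 (12.5 µg/ml at 6 h, and the 24 h against 6 h effect) and 0 to 1 (12.5 µg/ml at 24 h, and untreated cells). Counts for 25 µg/ml at 6 h and at 12 h and for 12.5 µg/ml at 12 h stayed at 0. The cause of these moves was not tested.

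Genes called over the whole table for 25 against 0 µg/ml over all times numbered 1138 (657 higher, 481 lower). They split 393 and 765 with median centring, 539 and 653 with quantile normalization, and 884 and 1116 with GC content and length correction. That correction was run on the 11157 tested genes that matched GENCODE v29, so its counts are out of 11157. The total was 2000 with that correction, 1878 with the replicate block added to it, 42 in lane 4 alone, 8 in lane 5 alone, 488 without the 12 h libraries, 46 without the 24 h libraries, and 613 to 2034 with single libraries left out, the highest without replicate 1 of 12.5 µg/ml at 6 h. At 24 h it was 1978, and 12 with only the groups compared, 702 in lane 4 alone, 1268 without the 12 h libraries, and 483 to 3071 with single libraries left out.

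The labels give no replicate numbers that link samples across groups, so the first library and its duplicate share only an order. The replicate block alone gave 969 genes over all times and left DGKA called (0.20, adjusted p = 0.0016), with 1 member called. Depth limits low genes, and as FPKM keeps no counts its effect on single genes cannot be given. The untreated 12 h group has 1 library, so effects at 12 h rest on the spread of the other groups.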
